A study of Mus musculus with 6 samples.

Results

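The cytosolic ribosomal protein genes encode the proteins of the ribosome that translates nuclear messenger RNAs. They were taken from the deposited count tables by type and name: a row that GENCODE M21 types as protein-coding, with a symbol that starts with Rpl or Rps followed by a digit or that is Rplp0, Rplp1, Rplp2 or Rpsa, without the S6 kinases (Rps6k) and without pseudogene symbols that contain -ps. This gave 86 genes of 49671 in the tables, 52 with large-subunit names (Rpl, Rplp) and 34 with small-subunit names (Rps, Rpsa). The name rule also takes in Rps19bp1, a nucleolar protein that binds Rps19, and Rpl7l1, a homologue of Rpl7 that acts in large-subunit assembly. It leaves out ribosomal proteins under other names, such as Fau and Rack1. RNA came from OT-I CD8 T cells, labelled naive primary CD8 T cells of mouse splenocytes, whose transgenic receptor recognises the ovalbumin peptide SIINFEKL. Cells were stimulated with that peptide on antigen-presenting cells for 48 h and received BiTS, BiTS(mut) or an isotype control, so all 3 groups were activated cells, with 2 libraries in each. BiTS is a bispecific molecule directed at the checkpoint receptor LAG-3 and the T cell receptor complex. The change in BiTS(mut), the age of the mice and any pooling of animals are not stated in the labels.

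The library titles carry the numbers 1 to 6, and each of the runs 1 to 3 (the first set) and 4 to 6 (the second set) holds 1 library of every treatment. The labels do not say what these numbers mark, and nothing in them says that the libraries of a group came from separate cultures or mice, so p-values measure the spread between these libraries, which may be technical. The sets were therefore compared as sets of libraries and carry no treatment.

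A ribosome is built from a small subunit, which reads the messenger RNA, and a large subunit, which forms peptide bonds, and each subunit needs its proteins in matched amounts. Messenger RNAs of these proteins start with a tract of pyrimidines, the terminal oligopyrimidine or TOP motif. The growth kinase complex mTORC1 acts on the translation of TOP messages, in part through the RNA-binding protein LARP1. Activated T cells grow and divide quickly and make many ribosomes, and these messages belong to the most abundant in such cells.

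Gene counts per library ran from 10813123 to 15239077. Deviations from the group means were shared by libraries of 1 set, with correlations of 0.636 to 0.712 across 13996 genes, and counts of libraries from different sets differed more (chi-square of 28.8 to 44.0 per degree of freedom) than those of libraries from 1 set (4.21 to 9.60). Each of the 10 CD8 T cell markers was detected, with a summed level, in counts scaled to a common library size (CPM), of 2614 to 2993 in the second set and 2270 to 2744 CPM in the first. Markers of dendritic cells, which can present the peptide, summed to 473 to 614 CPM in the second set and 783 to 1121 CPM in the first. Of the 12, 10 had enough counts to be tested and Siglech was at 0. Cd209a was at 0.0822 CPM with BiTS(mut) in the second set and at 0 elsewhere. Macrophage or monocyte markers summed to 27.4 to 31.7 CPM in the second set and 33.4 to 39.4 CPM in the first. This sum joined opposite differences: with each treatment Ly6c2 was higher in the second set, while Cd68, Lyz2 and Csf1r were lower. The median log2 fold change of the 4 tested macrophage or monocyte markers, second over first set, was -1.31. B cell markers summed to 87.5 to 99.7 CPM in the second set and 56.7 to 73.7 CPM in the first. Hbb-bs, a globin gene of red cells, was at 0. In bulk RNA, fewer cells of a type and less RNA per cell cannot be told apart.

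Sequences show how these genes begin and how far copies of them can be separated by short reads. Promoters were matched by symbol for 66 of the 86 genes in a RefSeq table (GRCm38.p6) of 250 bases before and 50 after each start. Below are 60 bases, from 40 before to 20 after the start, for genes at the high and low ends of the difference between the sets described further on. Capitals mark either a searched motif or a run of 5 or more C or T letters that covers the start.
Rpl38, chr11:114668540-114668599, + strand: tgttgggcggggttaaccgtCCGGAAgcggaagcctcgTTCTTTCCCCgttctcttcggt
Rpl35, chr2:39005112-39005171, - strand: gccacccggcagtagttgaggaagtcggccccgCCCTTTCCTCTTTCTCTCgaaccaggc
Rpl41, chr10:128549149-128549208, - strand: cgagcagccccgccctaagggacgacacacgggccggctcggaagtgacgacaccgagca
Rps15, chr10:80292391-80292450, + strand: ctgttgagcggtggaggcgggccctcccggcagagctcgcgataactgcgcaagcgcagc
Rpl10, chrX:74270776-74270835, + strand: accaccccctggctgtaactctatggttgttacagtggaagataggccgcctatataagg
Rpl5, chr5:107900488-107900547, + strand: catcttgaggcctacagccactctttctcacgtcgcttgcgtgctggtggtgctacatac

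A pyrimidine run over the annotated start, read on the sense strand, was present in 21 of the 66 genes (31.8%), against 11.8% of the 27025 genes in the table. The core letters CCGGAA, the ETS motif, were found on either strand of 36 of the 66 promoters (54.5%), against 16.7% of the table. The other letters searched on both strands were TATAAA, in 10.6% of these genes against 15.7%, AAGATGGC, the YY1 core, in 9.1% against 3.2%, and CACGTG, the E-box, in 9.1% against 8.1%. Where the run lies depends on the annotated start to the base, so a run that ends before the start, as in Rpl5, is not counted.

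Among the 86 genes, Rplp1 and Rps12 had the highest levels per exon length. Rplp1, an acidic protein of the stalk that recruits elongation factors, averaged 4124 CPM per kb of exon over the 6 libraries, with a range of 3211 to 5098. Rps12, a small-subunit protein, averaged 4042 CPM per kb and ranged from 3156 to 4916, so the ranges of these 2 genes overlap. Rpl8, which lies near the peptide-bond centre, followed at 2872 CPM per kb, then Rps15, next to the decoding site, at 2461 and Rplp0, the base of the stalk, at 2143. Over both sets together, the ranges of Rpl8 (2134 to 3534), Rps15 (1844 to 3108) and Rplp0 (1728 to 2427) overlapped, while within every library Rpl8 lay above Rps15. When the length of 1 transcript model per gene replaced the summed exon length, a choice made after the values were seen, Rplp1 and Rps12 kept ranks 1 and 2, and Rps15, Rpl8 and Rplp0 took ranks 5, 7 and 11. At the low end, Rpl10l had no count in any library, Rpl3l had 1 to 6 counts and Rpl39l 0 to 11 counts, and these 3 did not pass the filter on low counts; the remaining 83 were tested. The lowest tested genes per exon length were Rps27rt (17.4 CPM per kb), Rpl7l1 (30.2), Rps19bp1 (44.6), Rps27l (87.1) and Rpl22l1 (108).

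The ribosomal protein genes took a larger share of the gene counts in the second set than in the first. The share was 11.7% with BiTS, 11.8% with BiTS(mut) and 11.3% with isotype in the second set, against 9.16%, 8.90% and 8.78% with BiTS, BiTS(mut) and isotype in the first. Every library of the second set lay above every library of the first, and 95% Wilson intervals, which cover counting error only, were no wider than from 11.71% to 11.75% for BiTS in the second set. The means were 11.6% ± 0.241 in the second set and 8.95% ± 0.192 in the first (SD, n = 3 each), and the exact two-sided permutation test gave p = 0.1, the smallest value that 3 against 3 libraries allow. Large-subunit genes held 59.0% to 59.4% of these counts in the second set and 59.4% to 59.5% in the first, so both subunits kept nearly the same proportion. Genes encoded in the mitochondrial genome took 10.67% to 11.03% of gene counts in the second set and 7.87% to 9.14% in the first; their part in the difference was not tested.

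**Figure D1:**
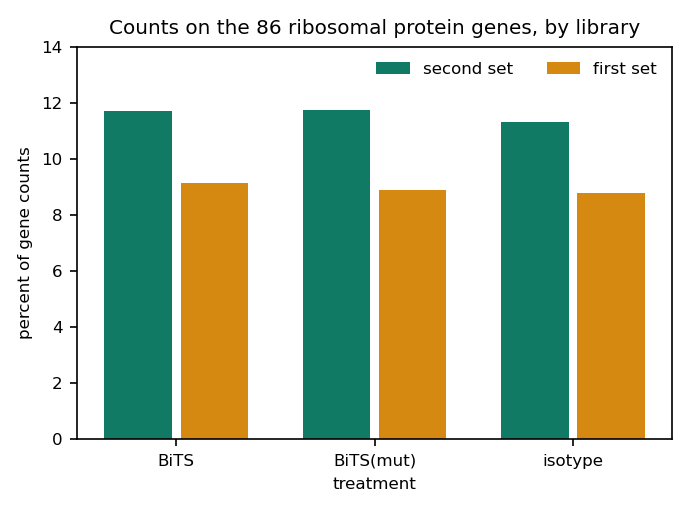
Percent of each library's gene counts on the 86 ribosomal protein genes, by treatment (horizontal axis), with 1 bar per library. Bars of the second set stand between 11.3% and 11.8%, above those of the first set at 8.78% to 9.16%, whichever the treatment.

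By gene, 82 of the 83 tested genes were called higher in the second set and 0 lower, by edgeR's quasi-likelihood test at a Benjamini-Hochberg adjusted p under 0.05; with scaling to the spike-in RNA the direction turned, as given below. Over all 13996 genes tested, 52.7% were called, 25.9% higher and 26.9% lower. The median log2 fold change of the 83 genes was 0.44, against 0.02 over all genes tested. The 49 large-subunit genes had a median of 0.44 with a range of 0.13 to 0.73, and the 34 small-subunit genes a median of 0.44 with a range of 0.26 to 0.66. In each of the 83 genes the lowest library of the second set lay above the highest of the first, which was so for 27.9% of all genes tested. The difference held within each treatment: 83 of 83 genes were higher in the second set with BiTS (median 0.43 on the log2 CPM scale), with BiTS(mut) (0.45) and with isotype (0.43).

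These directions are relative to the other genes of each library. With ERCC spike-in RNA as the scale, the median of all genes was -0.74 (log2, second over first set) and the median of the ribosomal protein genes was -0.32. None of the 83 was higher in the second set, beside 6.88% of all genes tested, and none was called, beside 43.7%. Each of the 83 lay above the median of all genes. Spike-in counts were 5.14% to 7.54% of all counts in the second set and 3.36% to 4.03% in the first, and the labels do not say at which step the spike-ins were added.

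The 5 genes with the lowest p between the sets, each higher in the second relative to the other genes and turned by spike-in scaling, belonged to both subunits. Rpl38, a large-subunit protein whose loss in mice alters the skeleton, had 355 CPM with BiTS, 377 with BiTS(mut) and 311 with isotype in the second set, against 212, 202 and 214 CPM with BiTS, BiTS(mut) and isotype in the first. Its log2 fold change was 0.73 (SE 0.07, adjusted p = 3.11e-12 by edgeR). Rpl41, the shortest protein of the ribosome, had 1297, 1349 and 1127 CPM with BiTS, BiTS(mut) and isotype in the second set, against 816, 769 and 731 CPM in the first, a log2 fold change of 0.70 (SE 0.07). In neither gene did the sets overlap. The whole coding sequence of Rpl41, 78 bases on chromosome 10, is shown because it is the shortest of the 86; here no letter is in capitals.
Rpl41: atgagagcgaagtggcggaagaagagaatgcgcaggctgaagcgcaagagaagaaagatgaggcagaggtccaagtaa

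Rps15, a small-subunit protein needed for export of the subunit from the nucleus, had 1958, 1946 and 1780 CPM with BiTS, BiTS(mut) and isotype in the second set, against 1249, 1208 and 1162 CPM in the first (log2 fold change 0.65, SE 0.06). Rpl8 had 3031, 3046 and 2899 CPM in the second set, against 2089, 1951 and 1840 CPM in the first, treatments in the same order (log2 fold change 0.61, SE 0.06). Rpl35, at the rim of the tunnel through which the new protein leaves, had 1134, 1178 and 1051 CPM in the second set, against 743, 718 and 734 CPM in the first (log2 fold change 0.61, SE 0.07). Each of these 5 was higher in 3 of 3 pairs of libraries of 1 treatment. Rps19bp1, at 0.66 (SE 0.09), was above Rps15 in log2 fold change but had a wider error. The abundant stalk proteins differed from one another: Rplp1 had a log2 fold change of 0.59 (SE 0.06) and Rplp0 one of 0.35 (SE 0.06). Rplp1, Rplp0, Rps19bp1, Rps12 at 0.53 and the genes at the low end that follow were chosen for the text after their values were seen.

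Rpl10, which joins the large subunit last and completes it, was the gene not called. It had 997 CPM with BiTS, 971 with BiTS(mut) and 1016 with isotype in the second set, against 946, 930 and 854 CPM in the first, a log2 fold change of 0.13 (SE 0.07, adjusted p = 0.0913 by edgeR). Its sets did not overlap either, but the gap between them was small. Rpl5, part of the particle of 5S RNA that restrains Mdm2, had a log2 fold change of 0.16 (SE 0.06, adjusted p = 0.0317), with 1585, 1552 and 1581 CPM with BiTS, BiTS(mut) and isotype in the second set, against 1444, 1428 and 1351 CPM in the first. Rpl7 and Rpl3, also large-subunit proteins, had log2 fold changes of 0.19 each (adjusted p = 0.0154 and 0.0106 by edgeR). The calls of these low genes were less firm: Rpl5 missed the threshold when any of the 4 libraries of BiTS or BiTS(mut) was left out, Rpl3 likewise, and Rpl7 when any library of isotype or BiTS(mut) was.

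**Figure D2:**
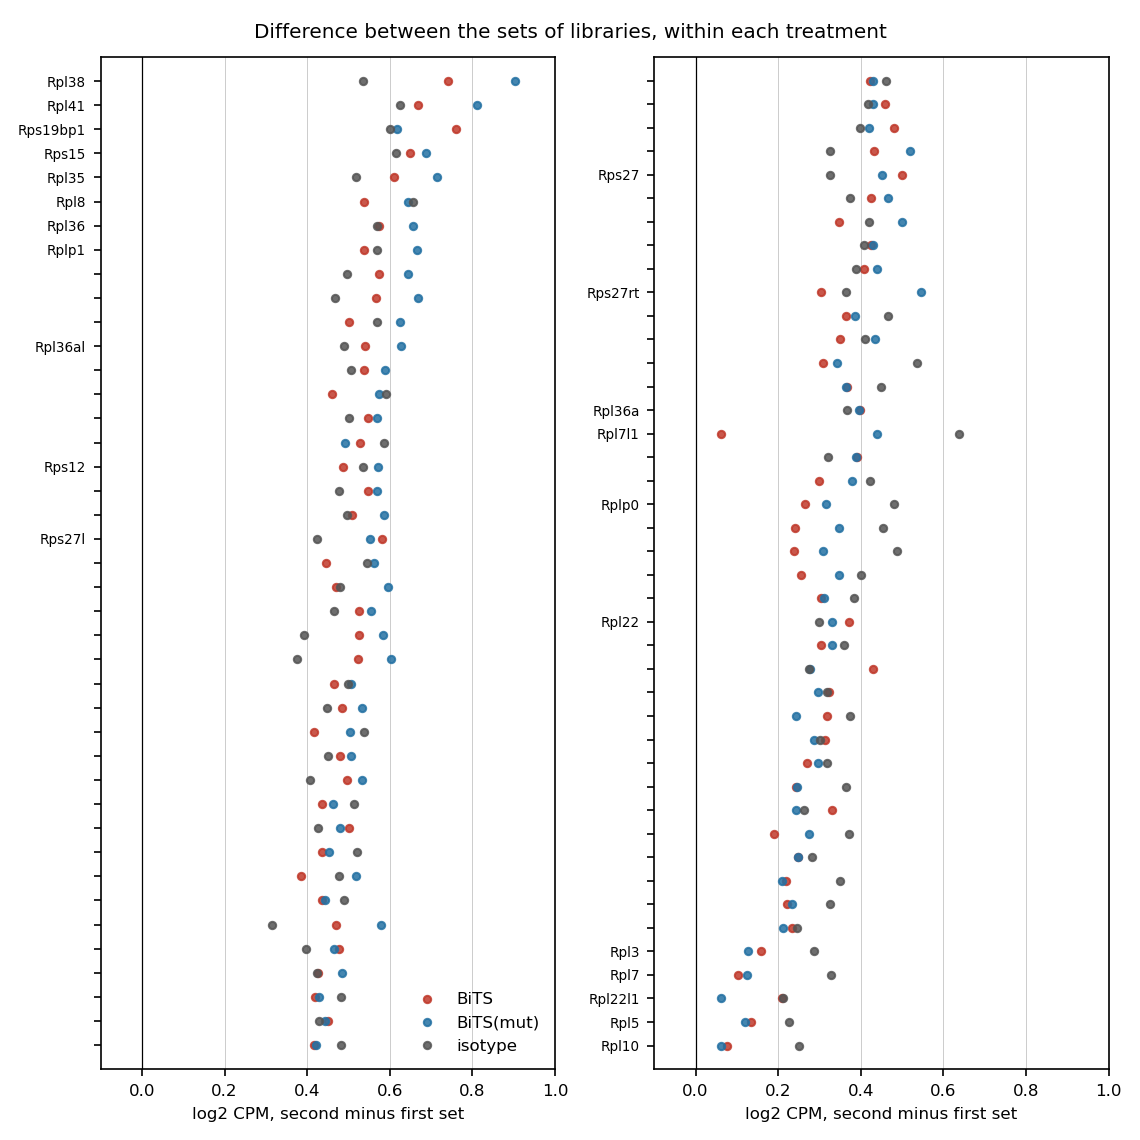
Difference in log2 CPM between the second and first set (horizontal axis, second minus first) for the 83 tested ribosomal protein genes, 1 point per treatment, ordered by fitted fold change from Rpl38 to Rpl10, with names for some of the genes described in the text. Every point lies right of 0, relative to the other genes of its library; with spike-in scaling the fitted fold changes lie below 0.

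Genes with a short coding sequence had larger differences between the sets. Across the 83 genes, Spearman's rho between coding length and log2 fold change was -0.42, and between transcript GC content and log2 fold change 0.51, as descriptions across genes that share libraries. The 11 genes with at most 300 coding bases had a median of 0.50, the 49 with 301 to 600 one of 0.45, the 21 with 601 to 1200 one of 0.35, and the 2 longer ones, Rpl3 and Rpl4, one of 0.22. The same order ran through the other coding genes tested, at a lower level, with medians of 0.27 for 243 genes of at most 300 coding bases, 0.10 for 1305 genes, 0.00 for 3480 genes, -0.03 for 4404 genes and -0.11 for 2459 genes over 2400 bases. In each of the 4 length classes that held ribosomal protein genes, even the lowest of them was above the median of the other genes. Over the 11891 other coding genes rho was -0.14 for coding length and 0.23 for GC content. The part of length, GC content and RNA quality in the difference was not tested. By promoter, the median was 0.42 in the 21 tested genes with a pyrimidine run over the start and 0.43 in the 42 without, and for CCGGAA it was 0.43 in 35 genes with and 0.40 in 28 without.

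**Figure D3:**
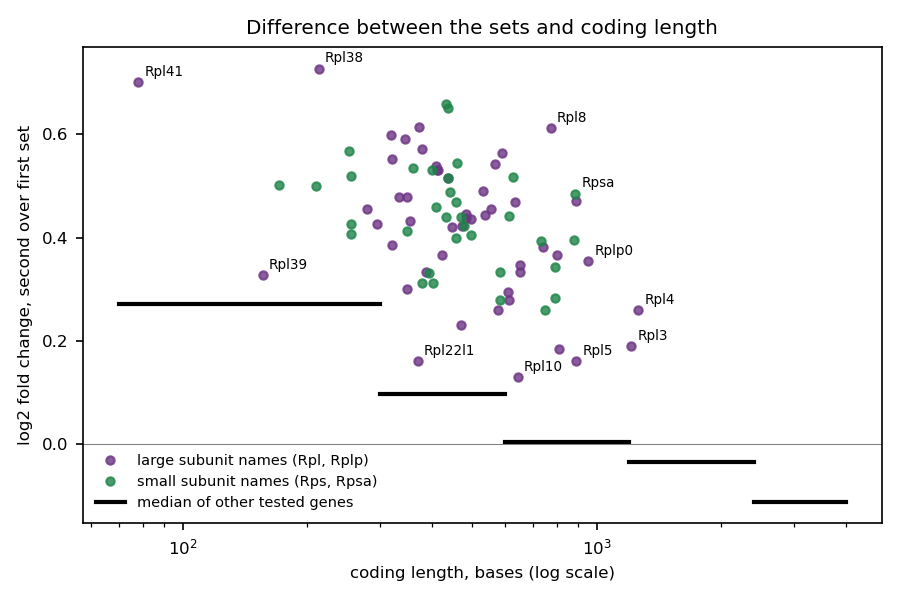
Log2 fold change of the second over the first set (vertical axis, TMM-scaled) against coding length in bases (log scale) for the 83 tested ribosomal protein genes, with bars for the median of the other tested genes in each length class. Points run from Rpl38 at 0.73 down to Rpl10 at 0.13 and each lies above the bar of its class; with spike-in scaling the whole set of points lies below 0.

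Genes related to the ribosome did not share 1 direction between the sets, relative to the other genes. Fau and Rack1, ribosomal proteins outside the name rule, were called higher: Fau had 1353, 1344 and 1206 CPM with BiTS, BiTS(mut) and isotype in the second set, against 987, 1000 and 932 CPM in the first. Its log2 fold change was 0.42 (SE 0.06), and Rack1, a scaffold on the small subunit, had one of 0.31 (SE 0.06). Over all genes tested, 25.9% were called higher and 26.9% lower, and these shares stand beside each list that follows. Of 20 translation factors and other messages with a known TOP start, 5 were called higher and 7 lower (median -0.11), not far from those shares. The higher ones included Eef1d (0.51) and Eef1b2 (0.31), subunits of the exchange factor of elongation, and the lower ones Vim (-0.56) and Eef1a1 (-0.18), the factor that brings transfer RNA to the ribosome. Eef1a1 had 7456 CPM with BiTS, 7154 with BiTS(mut) and 8466 with isotype in the second set, against 8950, 8978 and 8207 CPM in the first, so it was lower with BiTS and BiTS(mut) and not with isotype. Mitochondrial ribosomal proteins, a list added after the data were seen, were called higher in 49 of 78 genes and lower in 0 (median 0.35), with Mrps26 at 0.93 and Mrpl12 at 0.90. With spike-in scaling, neither Fau nor Rack1, 0 of the 20 TOP messages and 8 of the 78 mitochondrial ribosomal protein genes were above 0, while Fau, Rack1, 7 of the 20 and 72 of the 78 lay above the median of all genes.

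Of 20 genes of mTORC1, the S6 kinases and TOP control, 3 were called higher and 8 lower in the second set (median -0.06). Over all genes tested, 25.9% were called higher and 26.9% lower. Larp1 itself had a log2 fold change of 0.14 and was not called (adjusted p = 0.0643 by edgeR), and Rheb, the activator of mTORC1, was lower at -0.47. Of 9 tested chaperones and escorts that carry single ribosomal proteins to the nucleolus, 4 were called higher and 0 lower, among them Grwd1 (0.83), a partner of Rpl3, and Rrs1 and Rpf2 (0.55 each), which load the 5S particle; with spike-in scaling 1 of the 9 was above 0. Of 8 ribosome quality control genes, 3 were called higher and 3 lower. With spike-in scaling 0 genes of these last 3 lists were called higher, and 11 of the 20, 2 of the 9 and 3 of the 8 were called lower. Under that scaling 43.7% of all genes tested were called in either direction. Dendritic cell markers were called lower in 9 of 10 tested genes (median -1.13) and CD8 T cell markers higher in 6 of 10 (median 0.21, turned by spike-in scaling with 0 of 10 above 0); the part of cell mixture in these differences was not tested.

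No ribosomal protein gene was called between treatments. For BiTS against isotype, 0 of the 83 genes were called by edgeR's quasi-likelihood test, where 0% of all genes tested were called, and 0 of the 83 with the set as a replicate block, where 3.4% (476 genes) were. For BiTS against BiTS(mut) it was 0 of 83 beside 0% without the block and 0 of 83 beside 0.972% with it, and for BiTS(mut) against isotype 0 of 83 beside 0% and 0 of 83 beside 0.05%. At an unadjusted p under 0.05, 0 of the 83 passed in each comparison without the block, beside 1.26%, 0.543% and 0.293% of all genes tested in the same order. With the block, 4 of the 83 passed for BiTS against isotype, beside 14.8% of all genes tested. For BiTS against BiTS(mut) 0 passed, beside 8.45%, and for BiTS(mut) against isotype 1 passed, beside 4.43%. DESeq2 and limma-voom also called 0 of these genes in each comparison without the block, where they called 0% of all genes tested. With the block they called 0 of these genes too. DESeq2 then called 1.11%, 0.364% and 0.0143% of all genes tested, in the same order of comparisons, and limma-voom 3.84%, 1.21% and 0.0572%. The 3 comparisons share libraries, so their values are not independent.

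More of the 83 genes were above 0 than below in each comparison, by an amount that depended on the scaling, and with spike-in scaling BiTS(mut) against isotype turned. For BiTS against isotype the median log2 fold change of the 83 genes was 0.07, against -0.01 over all genes tested, and 77 of 83 were above 0, against 48.8% of all genes. By set, 69 of 83 were higher with BiTS in the second set and 74 of 83 in the first, and 63 were higher in both, against 28.1% of all genes tested. Higher in both sets were 44 of 83 for BiTS against BiTS(mut), beside 28.4% of all genes, and 41 of 83 for BiTS(mut) against isotype, beside 24.96%. The share of gene counts on these genes was 10.4% ± 1.82 with BiTS and 10.1% ± 1.80 with isotype (SD, n = 2 each); BiTS exceeded isotype by 0.399 percentage points in the second set and by 0.375 in the first, while the exact permutation test, which could not go below p = 0.333, gave p = 0.667. For BiTS against BiTS(mut) the median was 0.02 and 65 of 83 were above 0. With library totals as the scale it was 0.01 with 51 of 83 above 0, and with spike-in scaling 0.17 with 82 of 83 above 0, where the median of all genes was 0.09. The share with BiTS was 0.0351 points below BiTS(mut) in the second set and 0.258 above it in the first (exact permutation p = 1). For BiTS(mut) against isotype the median was 0.04 with 65 of 83 above 0, and the share differed by 0.276 points (exact permutation p = 0.667). With spike-in scaling the median turned to -0.03, with 13 of 83 above 0. The median of all genes was then also -0.03, with 42.4% above 0, and 36 of the 83 lay above it. With spike-in scaling and the block, the medians were -0.08 for the 83 and -0.12 for all genes, and 68 of the 83 lay above the latter.

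With the replicate block, the lowest p for BiTS against isotype belonged to Rpl36, a large-subunit protein. It had 1087 CPM in the second set and 730 CPM in the first with BiTS, against 929 and 626 CPM with isotype. Within each set BiTS was above isotype, but the difference between sets was larger, so the groups overlapped. The log2 fold change was 0.22 (SE 0.08, adjusted p = 0.119 by edgeR). Rpl41 stood at 0.18 (SE 0.08, adjusted p = 0.253), followed by Rpl11, the partner of Rpl5 in the 5S particle, at 0.16, Rpl7a at 0.15 and Rps27 at 0.15. Of the 6 genes below 0, Rpl7l1 had the lowest value, -0.21 (SE 0.10, adjusted p = 0.31 by edgeR), followed by Rps27l, a paralog of Rps27, at -0.15, then Rps7 at -0.07, Rpl36al at -0.04 and Rps19bp1 at -0.01.

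Rpl7l1 did not behave alike in both sets. It had 72.3 CPM in the second set and 69.4 in the first with BiTS, against 93.8 and 69.2 CPM with BiTS(mut) and 102 and 65.7 CPM with isotype. The log2 difference of BiTS minus isotype was -0.50 in the second set and 0.08 in the first, and this difference between sets was not tested. Its call depended on single libraries: with the block, it was called lower with BiTS than with isotype without BiTS replicate 1 (-0.45) and without isotype replicate 1 (-0.40). Rpl36 (0.24) and Rpl41 (0.23) also passed the threshold without isotype replicate 1, and Rplp0 (0.21), Rps2 (0.22) and Rpsa (0.18) without isotype replicate 4. In these fits a treatment kept a single library, and genes outside the ribosomal protein genes passed as well, so no weight is put on these calls.

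For BiTS against BiTS(mut) with the block, those with the lowest p above 0 were Rps12 (0.11, SE 0.08), Rps27 and Rpl36 (0.10 each), and Rps20 and Rps15a (0.09 each), while Rps27rt had a higher value with a wider error (0.14, SE 0.21), and among those with the lowest p below 0 were Rpl7l1 (-0.18, SE 0.10), Rpl31 and Rps19bp1 (-0.05 each) and Rps27l (-0.04). For BiTS(mut) against isotype they were Rpl41 (0.17, SE 0.08), Rps29 (0.15), Rpl36 and Rpl31 (0.13 each) and Rpsa (0.12), with Rps27l (-0.11), Rps7 and Rpl36al (-0.04 each) and Rps20 and Rps12 (-0.03 each) below 0. The lowest adjusted p was 0.679 for BiTS against BiTS(mut) and 0.9997 for BiTS(mut) against isotype (edgeR). Across the 83 genes, GC content had a Spearman's rho of 0.48 with the BiTS(mut) minus isotype values, 0.30 with BiTS minus isotype and -0.18 with BiTS minus BiTS(mut), again as a description. Dendritic cell markers were lower with BiTS than with isotype in 10 of 10 tested genes, 4 of them called with the block, among them Ccl17 (-1.02) and Ccl22 (-0.73). CD8 T cell markers were higher with BiTS in 10 of 10 tested genes, 3 of them called with the block (median 0.17). Over all genes tested, 3.4% were called with the block. The part of these markers' cells in the differences of the ribosomal protein genes was not tested.

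**Figure D4:**
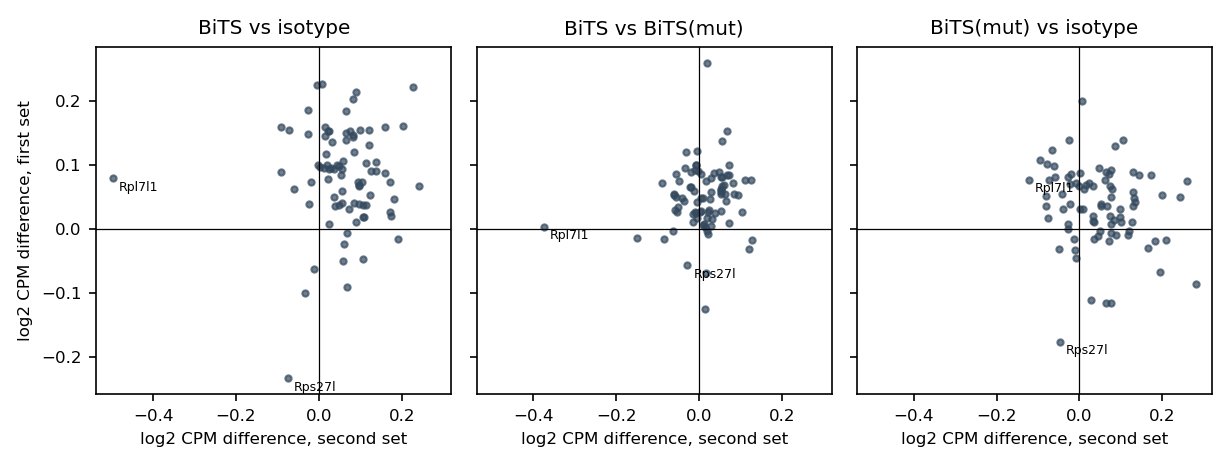
Log2 CPM difference between treatments in the second set (horizontal axis) and in the first set (vertical axis) for the 83 tested ribosomal protein genes, 1 panel per comparison and 1 point per gene. For BiTS against isotype 63 points lie in the upper right part of the panel, and Rpl7l1 stands apart at -0.50 in the second set and 0.08 in the first; for BiTS(mut) against isotype the side of 0 turned with spike-in scaling.

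Several ribosomal protein genes have a paralog in the genome, and the cells used these to very different degrees. Rpl22l1, 70.3% identical to Rpl22 in protein sequence, was expressed at 54.8% to 65.9% of the level of Rpl22 per exon length. That ratio was 56.1% with BiTS, 54.8% with BiTS(mut) and 60.3% with isotype in the second set, against 62.8%, 65.9% and 64.1% in the first, so the 2 sets did not overlap. Rpl22 is the paralog known from T cell development, and its own log2 fold change between the sets was 0.33, against 0.16 for Rpl22l1. Rpl36al, whose protein is identical to that of Rpl36a, stood at 105%, 110% and 113% of Rpl36a with BiTS, BiTS(mut) and isotype in the second set, against 95.4%, 93.3% and 104% in the first. Summed exon lengths are 1353 bases for Rpl36al and 1655 for Rpl36a, but their transcript models have 526 and 483. Whether Rpl36al lies above Rpl36a thus depends on the length used, and the models give lower ratios. They also do for Rpl22l1 and Rpl22, with 1989 and 2911 summed bases but models of 552 and 474. The length used does not alter the order of libraries within a pair.

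Rps27l, a target of p53 that differs from Rps27 in 3 of 84 residues, stood at 19.9%, 22.2% and 24.8% of Rps27 with BiTS, BiTS(mut) and isotype in the second set, against 18.8%, 20.7% and 23.2% in the first. In both sets this ratio was lowest with BiTS and highest with isotype. Its level rests on summed exon lengths of 816 bases for Rps27l and 1043 for Rps27. The transcript models, of 499 and 345 bases, give a lower ratio in every library and the same order. The ratio itself was not tested, and neither Rps27l nor Rps27 was called between treatments. Rpl7l1 stood at 5.98% to 8.04% of Rpl7 per exon length. Rpl3l, a form of striated muscle, was at 0.0403% of Rpl3 or less, and Rpl10l, a retrogene of the male germ line, had no count, which allows up to 3 counts or 0.195 to 0.284 CPM per library. Rpl39l, also known from the testis, had 6 counts with BiTS, 11 with BiTS(mut) and 8 with isotype in the second set, against 1, 0 and 0 counts in the first. With no filter on low counts it was called higher in the second set by edgeR (adjusted p = 0.000698). Its protein shares 48 of 51 residues with Rpl39, and its coding sequence 133 of 156 aligned bases. Whether some of these few reads belong to Rpl39 was not tested.

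**Figure D5:**
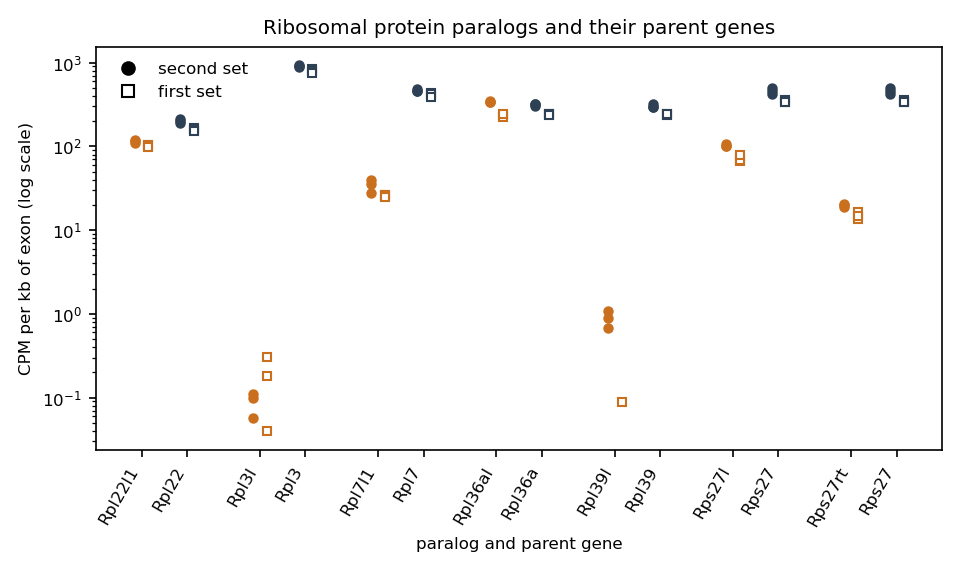
Level of each paralog (orange) and its parent gene (dark) in CPM per kb of exon (log scale), 1 point per library, with the second set filled and the first set open. Rpl22l1 and Rpl36al lie close to their parent genes, Rpl7l1, Rps27l and Rps27rt lie below, and Rpl3l and Rpl39l are near 0; libraries with no count and Rpl10l, at 0 in every library, are not drawn.

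Rps27rt is an intronless copy of Rps27 on another chromosome, and it shows the limit of short reads for such pairs. Its coding sequence does not differ from that of Rps27 in any of 255 bases, as the first 120 of each show, written in lower case since no base differs.
Rps27, chromosome 3: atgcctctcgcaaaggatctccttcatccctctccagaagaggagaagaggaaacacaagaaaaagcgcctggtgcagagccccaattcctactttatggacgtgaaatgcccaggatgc
Rps27rt, chromosome 9: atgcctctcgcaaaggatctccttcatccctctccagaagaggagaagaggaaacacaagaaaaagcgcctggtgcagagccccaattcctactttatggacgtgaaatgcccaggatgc

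Rps27rt was listed at 5.13 to 7.57 CPM over the 6 libraries and at 4.03% to 4.62% of Rps27 per exon length. That ratio varied little between libraries, and reads within the coding sequence cannot be told apart between the 2 genes, so neither level is certain. Pseudogene rows of these genes, 278 with -ps in the symbol, took 0.0781% to 0.0898% of gene counts in the second set and 0.0634% to 0.0646% in the first; adding each to its parent gene left 82 genes called between the sets and 0 between treatments. Exons of 17 of the 86 genes overlapped an exon of another gene on the opposite strand, and since the strand setting is not given in the sources used here, reads there cannot be assigned; the largest such neighbour relative to its gene was Tbc1d8, beside Rpl31, with 13.6% of the counts of Rpl31.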

How the data were processed

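The authors deposited raw counts per gene, 1 table for each of the 6 libraries. The submitters' processing notes name mm10 and DESeq2; which aligner, counting tool, annotation and strand setting were used is not given in the sources used here. Gene symbols and types came from GENCODE M21 by identifier (49412 of 49671 matched); 71 of the 86 ribosomal protein genes had the same interval there. The 92 ERCC spike-ins stayed out of totals, filter and scaling. Library sizes gave 3 counts as 0.195 to 0.284 CPM.

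Counts were fitted with edgeR 4.0.16 (R 4.3.3; filterByExpr, TMM, glmQLFit, glmQLFTest) on all 13996 genes that passed, with 1 coefficient per treatment, Benjamini-Hochberg adjustment over all of them and a threshold of 0.05. The set comparison had treatment and set in the model. Log2 CPM values are TMM-scaled with a prior count of 0.5. Alternatives were a replicate block for the set, DESeq2 1.42.0, limma-voom (limma 3.58.1), other scalings, filters and libraries left out. Shares were compared by exact permutation in scipy. Scripts were tested on simulated data.

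The genes and the related lists were chosen with earlier results of these data known. Named in full were, per comparison, the 5 genes of lowest p in each direction with the block, the 5 highest and the lowest genes per exon length, and paralog pairs; some of these genes are not reported here. Coding length and GC content were those of the shortest transcript with the principal coding sequence. For some genes the deposited exon length is shorter than this transcript (Rps24, 840 against 1613 bases), so levels per length depend on the annotation.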

Additional observations from a re-analysis of the deposited data

How the results depend on the processing

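The block is supported by the correlations between libraries of 1 set and not by the labels. Without the replicate block and with it, 0 of the 83 genes were called between treatments, and the medians with the block were 0.07 for BiTS against isotype, 0.03 for BiTS against BiTS(mut) and 0.04 for BiTS(mut) against isotype. Leaving out each library with the replicate block gave 0 to 3 called genes for BiTS against isotype (1 without BiTS replicate 1, 3 without isotype replicate 1 or 4) and 0 for the other comparisons. Without the block, a library left out also leaves the sets unequal between treatments, and the medians then ran from -0.15 to 0.31, from -0.19 to 0.28 and from -0.20 to 0.27, and the differences in share from -0.897 to 1.67, from -1.32 to 1.54 and from -1.16 to 1.71 percentage points, in the same order of comparisons. With library totals as the scale, the medians were 0.047 (0.045 with the block) for BiTS against isotype, 0.010 (0.014) for BiTS against BiTS(mut), 0.033 (0.029) for BiTS(mut) against isotype and 0.39 for the sets. With spike-in scaling they were 0.13 (0.13 with the block), 0.17 (0.21) and -0.035 (-0.080) for the treatments. For the sets the median was -0.32, with 0 of the 83 genes called beside 43.7% of all genes tested. The cause of this turn was not tested. With no filter on low counts, BiTS against BiTS(mut) gave a median of 0.0085 (50 of 85 genes above 0), or 0.013 with the block. The sets gave a median of 0.41 with no filter on low counts and 0.46 with at least 5 CPM in 2 libraries. With 1 library left out, the sets gave medians of 0.43 to 0.45 and 76 to 80 called genes, beside 34.2% to 49.4% of all genes tested. The share over nuclear protein-coding counts differed by 0.504 points for BiTS against isotype and by 3.37 for the sets, and over counts with spike-ins by 2.29 for the sets; with 1 library left out the sets differed by 2.58 to 2.80.

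Single genes kept their direction and their side of the threshold in 606 of 656 repeats. With spike-in scaling the sets turned for Rpl41 (-0.060), Rpl38 (-0.035), Rps15 (-0.11), Rpl8 and Rpl35 (-0.15 each), Rplp1 (-0.17), Rps12 (-0.23), Rplp0 (-0.41), Rpl3 and Rpl7 (-0.57 each), Rpl5 (-0.60) and Rpl10 (-0.63). Under the same scaling with the block, values turned for Rpl36al (0.020) and Rps19bp1 (0.052) in BiTS against isotype, for Rpl31 (0.13), Rps19bp1 (0.13) and Rps27l (0.14) in BiTS against BiTS(mut), and for Rpsa (-0.0037) in BiTS(mut) against isotype. Rps19bp1 was at 0.0048 without the block in BiTS against isotype. With 1 library left out and the block kept, values crossed 0 to as far as 0.064 and 0.028 (Rps19bp1), 0.025 (Rpl7l1) and 0.0051 (Rpl36al) in BiTS against isotype, 0.023 (Rps19bp1), 0.0075 (Rps27l), 0.052 (Rpl7l1) and 0.0026 (Rpl31) in BiTS against BiTS(mut), and 0.011 and 0.0046 (Rps20) and 0.0084 (Rpl36al) in BiTS(mut) against isotype. Rpl10 was called in the set comparison with at least 5 CPM in 2 libraries, Rpl5 missed the threshold with library totals or no filter, and Rpl7 with library totals. With 2 libraries per treatment, the median standard error of these genes between treatments was 0.079 with the block and 0.258 without, so differences of the size seen were not detectable without it. Where a library was left out, the lone library of its treatment was assumed to vary like the others. Transcript models as the length, mitochondrial ribosomal proteins, and Rpl10, Rpl5, Rpl7, Rpl3, Rplp0, Rplp1 and Rps12 in the set comparison were added after the data were seen.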
